A study of Rattus norvegicus with 15 samples.

Results

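The 9 genes described here are among those whose expression in control rat liver was most certainly different between weaning and adult life. They were picked from 14506 named genes by the change of control liver from day 21 to day 450, on these same arrays. Mettl7b, Acnat2 and Cdh17 were high in adult liver and low at weaning. Slc39a5, Aldh1b1, Tnfrsf9, Aqp7, Gfra3 and Alox15 were high at weaning and low in adult liver. Because the choice was made on that contrast, the control age change is given below as a description without a test, and the question put to the data was whether maternal calorie restriction moved these genes at day 21.

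The animals were 15 male Sprague-Dawley rats in 5 groups of 3, and RNA of each liver was hybridised to its own Affymetrix Rat Gene array. Control (Con) offspring had mothers that ate normally through pregnancy and lactation. Offspring with intrauterine calorie restriction (IUCR) had mothers whose calories were cut by 50% from embryonic day 11 to 21, and offspring with intrauterine and postnatal restriction (IPCR) had mothers restricted in that window and again from postnatal day 1 to 21. Con and IPCR livers were taken at day 21 and at day 450, whereas IUCR livers were taken at day 450 only. No group is labelled with a genetic change, and it was the diet of the mother, not that of the offspring, that was cut. The design text describes replicates as coming from separate littermates and does not say how litters were shared within or between groups, so p-values here measure the spread between these rats. Values are log2 intensities, in which a step of 1 is a doubling. The arrays in each group carry the replicate letters A, B and C, and the labels do not say whether a letter links rats of different groups.

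Weaning ends a fat-rich milk diet and begins a diet rich in carbohydrate, and rat hepatocytes change many of their enzymes and transporters at that time. In male rats, puberty brings a pulsatile pattern of growth hormone that raises a further set of liver genes, among them Cyp2c11 and Cyp2c13, the male-specific cytochromes P450 of steroid and drug oxidation. Control rats at day 450 had passed both changes, and control rats at day 21 stood at the end of suckling. In whole liver, fewer cells of a type and less RNA per cell cannot be told apart.

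The sequence before a gene's start is where the transcription machinery assembles, so the windows of members that switched in opposite directions are shown. RefSeq windows (assembly GRCr8, 250 bases before the start to 50 after it) were matched for 6 of the 9 genes: Mettl7b, Acnat2, Slc39a5, Aldh1b1, Tnfrsf9 and Gfra3. The windows of Mettl7b and Acnat2 stand for genes high in adults, and those of Slc39a5 and Aldh1b1 for genes high at weaning. Each is written 5′ to 3′ on the gene's own strand, and capitals mark the motif named after it.
Mettl7b, chr7:1975931-1976230, minus strand: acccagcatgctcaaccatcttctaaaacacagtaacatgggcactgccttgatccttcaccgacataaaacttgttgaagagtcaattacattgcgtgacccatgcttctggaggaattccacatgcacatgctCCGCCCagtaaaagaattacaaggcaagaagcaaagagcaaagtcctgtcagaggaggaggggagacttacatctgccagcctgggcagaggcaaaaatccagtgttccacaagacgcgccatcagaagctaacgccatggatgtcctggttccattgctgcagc
Acnat2, chr5:68552970-68553269, minus strand: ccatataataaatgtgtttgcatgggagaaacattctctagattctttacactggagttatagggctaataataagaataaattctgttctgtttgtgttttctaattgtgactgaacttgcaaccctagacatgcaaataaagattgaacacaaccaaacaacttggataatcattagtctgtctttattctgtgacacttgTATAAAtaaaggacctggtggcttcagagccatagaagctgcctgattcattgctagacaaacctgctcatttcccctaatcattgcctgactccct
Slc39a5, chr7:1414735-1415034, minus strand: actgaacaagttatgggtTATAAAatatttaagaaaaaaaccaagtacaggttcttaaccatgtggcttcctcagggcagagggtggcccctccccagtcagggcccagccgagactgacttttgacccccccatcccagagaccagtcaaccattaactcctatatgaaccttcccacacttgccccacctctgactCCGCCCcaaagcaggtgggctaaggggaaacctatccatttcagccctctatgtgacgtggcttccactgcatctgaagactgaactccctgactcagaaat
Aldh1b1, chr5:64858750-64859049, plus strand: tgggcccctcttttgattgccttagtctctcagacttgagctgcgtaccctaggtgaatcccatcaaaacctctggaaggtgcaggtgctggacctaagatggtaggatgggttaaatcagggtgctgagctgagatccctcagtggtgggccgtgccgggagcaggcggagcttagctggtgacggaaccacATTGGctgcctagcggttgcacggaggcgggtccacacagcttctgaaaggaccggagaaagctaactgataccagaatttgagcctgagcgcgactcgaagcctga

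The Acnat2 window had the capitals TATAAA, the letters of a TATA box, 47 bases before the start. Among the 11951 tested genes with a window, 11.7% held TATAAA on either strand. Acnat2 also had no CpG dinucleotide (0 in the window) and a GC content of 37.0%, against a median of 16 CpG (quartiles 5 and 26) and of 58.0% GC (quartiles 49.7% and 65.3%) over all windows. In the Mettl7b window the capitals are a GC box (GGGCGG, read on the opposite strand as CCGCCC) 115 bases before the start, with 6 CpG and 49.3% GC. GGGCGG was in 50.2% of all windows. Slc39a5 had the letters TATAAA 232 bases before the start and a GC box at 52 bases before it, with 3 CpG. Aldh1b1 had a CCAAT box (CCAAT, read on the opposite strand as ATTGG) 57 bases before the start, with 12 CpG, and CCAAT was in 38.3% of all windows. The Gfra3 window had 3 GC boxes, 26 CpG and 68.0% GC, and the Tnfrsf9 window had AGGTCA, the core of many nuclear receptor sites, 53 bases before the start and again from base 7 after it (13.3% of windows hold it). The letters TTCNNNGAA (a STAT site, 7.6% of windows), CAAAGTCCA (HNF4, 0.393%), TGTTTAC (FOXA, 2.86%), ATTGAT (HNF6, 6.1%), CACGTG (an E-box, 7.88%) and TTGCNNAA (C/EBP, 9.97%) were found in 0 of the 6 windows. A match is a description of letters and not a site shown to be bound.

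Array medians ran from 7.11 to 7.24 and no value was missing. The lower quartile of the 14506 genes lay between 6.37 and 6.57 on the 15 arrays. No detection call was used here, so values near or below that quartile may be background and folds that start there may be understated. That applies to Cdh17 at day 21, to Aqp7 at day 450, to some Aldh1b1 values at day 450 and to Tnfrsf9 on array C of IUCR (6.37). Hepatocyte markers were high on every array, with a mean over 9 markers of 13.08 to 13.68. Array B of IUCR stood apart at day 450 in genes that differ between the sexes: male-specific Hsd3b5 was 9.36 there against 12.41 and 12.33 on arrays A and C, and female-specific Cyp2c12 was 12.01 against 8.98 and 9.84. Array C of IPCR at day 450 had a mean of 9.11 over 6 pancreatic acinar markers, against 6.64 to 6.96 on the other day 450 arrays.

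In the contrast that chose them, the members held places 1 (Mettl7b), 3 (Slc39a5), 7 (Aldh1b1), 8 (Tnfrsf9), 9 (Acnat2), 10 (Aqp7), 11 (Cdh17), 13 (Gfra3) and 47 (Alox15) when all genes were ordered by certainty. In that contrast 9.89% of all genes passed an adjusted p of 0.05, from which nothing is read about the members. The control age change was a log2 rise of 4.29 for Mettl7b, 4.0 for Cdh17 and 3.93 for Acnat2. For the other members the log2 difference was -3.30 for Alox15, -2.44 for Aldh1b1, -2.17 for Aqp7, -2.12 for Slc39a5, -2.05 for Tnfrsf9 and -1.36 for Gfra3. Genes of similar certainty that are not members were Rup2 at place 2 (log2 difference 6.38), Cyp2c13 at place 4 (6.13), Nrep at place 5 (-2.18), Sparc at place 6 (-1.54) and Cyp2c11 at place 12 (6.11). Just past the last member stood Znf57l (2.13), Slc13a3 (-1.86) and Col4a1 (-0.88). Selection for certainty favours genes whose values scatter little over all 15 arrays, and that scatter is also part of every test below.

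**Figure D1:**
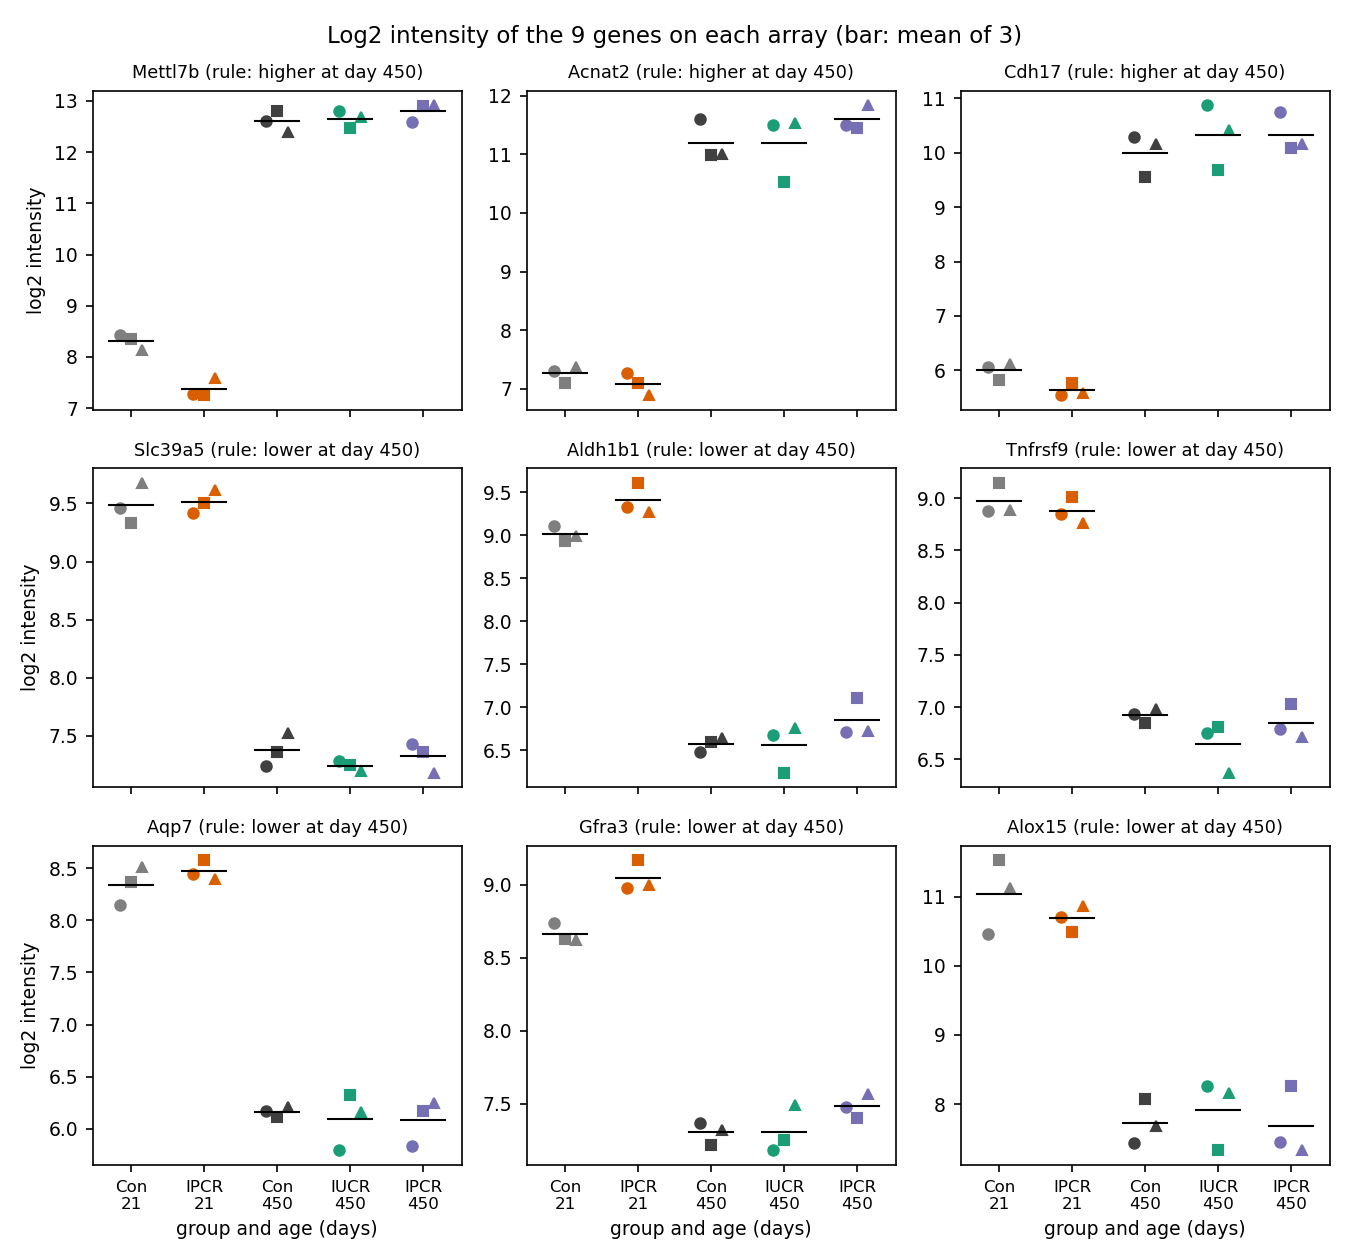
Log2 intensity (vertical axis) of each of the 9 genes on each of the 15 arrays, by group and age in days (horizontal axis); circles, squares and triangles are arrays A, B and C, and the bar is the mean of 3. The day 21 and day 450 arrays do not overlap for any of the 9 genes, with gaps from 1.05 (Gfra3) to 3.97 (Mettl7b), and within day 21 the IPCR arrays of Mettl7b lie below the controls and those of Gfra3 above them.

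At day 21 restriction moved 2 of the 9 genes: Mettl7b was lower in IPCR liver and Gfra3 was higher (limma, adjusted p over all 14506 genes below 0.05). Over all genes 9.62% passed in this comparison, and the 2 of 9 members are 22.2%. Every list count given below for day 21 is to be read against that 9.62%. The IPCR and control arrays did not overlap for 4 members (Mettl7b, Aldh1b1, Cdh17 and Gfra3), which is also the case for 29.9% of all genes. The median size of the log2 difference was 0.35 over the members and 0.11 over all genes. The day 21 control arrays also took part in choosing the members, so this comparison is not fully independent of the choice. The remaining 7 members had adjusted p-values from 0.0896 (Aldh1b1) to 0.921 (Slc39a5).

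In the age change of the IPCR rats, whose difference the choice did not use, 9 of 9 members passed, 3 higher and 6 lower at day 450, each in the direction seen in controls. Over all genes 28.1% passed, and every list count given below for this age change is to be read against that share. The fold sizes ran from 2.97 for Gfra3 to 43.3 for Mettl7b, and Mettl7b had the smallest p of all 14506 genes. These tests share their estimate of scatter with the contrast that chose the members. Neither the 9 of 9 nor that smallest p is thus fully independent of the choice. At day 450 none of the members passed the same test: 0 of 9 in IUCR against control (0.0% of all genes, 0 of 14506), 0 of 9 in IPCR against control (0.0345% of all genes) and 0 of 9 in IPCR against IUCR (0.0414%). With so few calls over all genes, these counts show nothing particular to the members. The day 450 control arrays also took part in choosing the members. At an unadjusted p below 0.05 the counts in the same comparisons, in that order, were 1, 0 and 0 of 9. Over all genes 1052, 2143 and 1084 of the 14506 had such a p. Arrays did not overlap for 1 member in IUCR against control (11.2% of all genes), 2 in IPCR against control (17.7%) and 0 in IPCR against IUCR (11.2%).

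**Figure D2:**
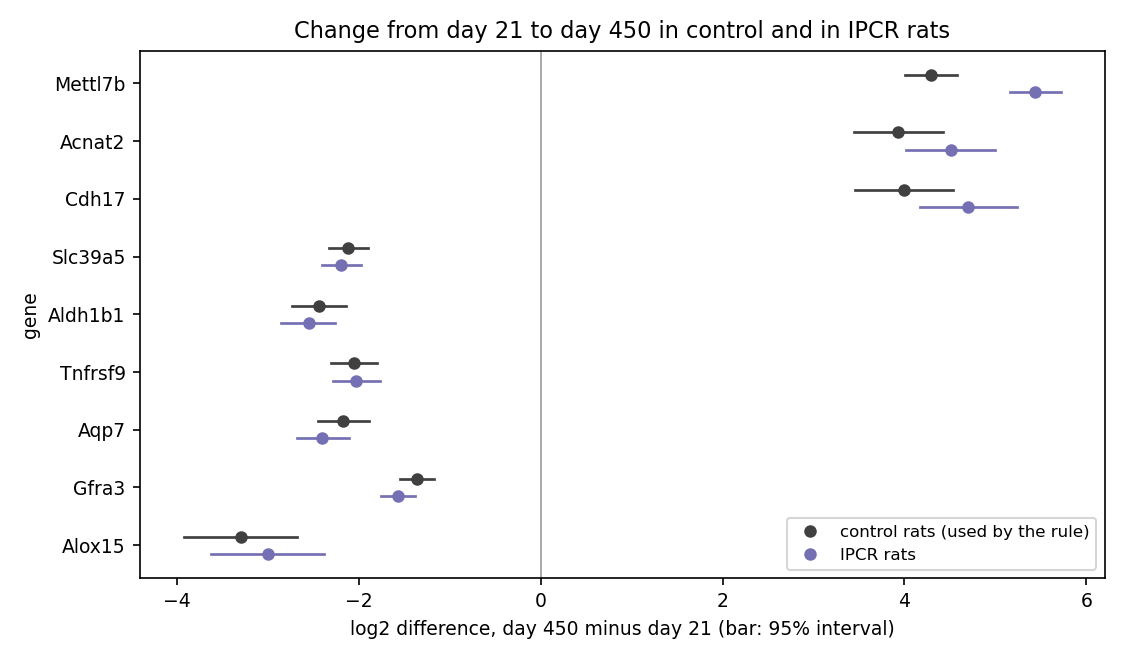
Log2 difference between day 450 and day 21 (horizontal axis) for each gene in control rats, which chose the genes, and in IPCR rats; points are the fitted difference and bars its 95% interval. Mettl7b, Acnat2 and Cdh17 rose and the other 6 genes fell in IPCR rats, and the largest rise was that of Mettl7b, at 5.44.

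Mettl7b encodes a membrane-bound methyltransferase of the endoplasmic reticulum and lipid droplets that acts on thiol groups (probe set 10899964). Control livers at day 21 read 8.43, 8.35 and 8.14, and IPCR livers at day 21 read 7.27, 7.25 and 7.59. Every IPCR array was below every control array. At day 450 the values were 12.60, 12.81 and 12.40 in control, 12.80, 12.47 and 12.69 in IUCR and 12.59, 12.91 and 12.92 in IPCR liver. These 3 adult groups overlapped, and all 9 adult arrays were far above the 6 juvenile ones.

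At day 21 Mettl7b differed by -0.94 in log2 (SE 0.13, 95% interval -1.22 to -0.66), a level 1.92-fold lower in IPCR liver (limma, adjusted p = 0.000371). From day 21 to day 450 IPCR liver rose by 5.44 (SE 0.13), or 43.3-fold, with an adjusted p of 6.86e-13. At day 450 the difference from control was 0.05 (95% interval -0.23 to 0.33) in IUCR and 0.20 (-0.08 to 0.48) in IPCR liver, with adjusted p-values of 0.955 and 0.48. Subtracting the IPCR effect of day 21 from that of day 450 gave 1.14 (SE 0.19, 95% interval 0.74 to 1.54, adjusted p = 0.0024). Mettl7b was the 1 member of 9 to pass in that comparison of effects, in which 8.2% of all genes passed. It equals the IPCR age change minus the control age change, so the arrays that chose the members enter it, and with each array's interquartile range as a covariate it was 0.89 with an adjusted p of 0.0868.

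Acnat2 is a member of the acyl-CoA amino acid N-acyltransferases, liver enzymes that join fatty acyl groups to amino acids such as taurine (probe set 10876703). Day 21 values were 7.31, 7.10 and 7.38 in control and 7.27, 7.10 and 6.89 in IPCR liver, and the groups overlapped. Adult values were 11.61, 10.98 and 11 in control, 11.50, 10.53 and 11.54 in IUCR and 11.50, 11.45 and 11.84 in IPCR liver. The lowest adult value was array B of IUCR, the array low in male-specific transcripts. Restriction at day 21 gave a difference of -0.18 (SE 0.23, 95% interval -0.67 to 0.31, adjusted p = 0.699). IPCR liver rose 22.8-fold from day 21 to day 450 (log2 4.51, SE 0.23, adjusted p = 2.96e-09). The adult differences from control were 0.00 (-0.49 to 0.48) in IUCR and 0.40 (-0.08 to 0.89) in IPCR liver, and neither passed (adjusted p = 0.997 and 0.421). Without array B the IUCR difference was 0.33 (adjusted p = 0.519). A lower probe set of the same gene gave group means of 7.47 ± 0.15 and 7.30 ± 0.32 at day 21 in control and IPCR, and of 10.68 ± 0.34, 10.68 ± 0.50 and 11.06 ± 0.21 at day 450 in control, IUCR and IPCR (SD, n = 3). The close relative Acnat1 has no probe set of its own among those used, and whether the probes for Acnat2 also bind its transcript was not tested.

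Cdh17, the liver-intestine cadherin, is a calcium-dependent adhesion protein found in rat hepatocytes and in intestinal epithelium (probe set 10867667). At day 21 it read 6.07, 5.83 and 6.11 in control and 5.54, 5.77 and 5.59 in IPCR liver. All 3 IPCR arrays lay under the controls, but all 6 values were below the lower quartile of genes. At day 450 it read 10.30, 9.55 and 10.16 in control, 10.88, 9.69 and 10.42 in IUCR and 10.75, 10.09 and 10.17 in IPCR liver, and these groups overlapped. For IPCR against control at day 21 the difference was -0.37 (SE 0.25, 95% interval -0.91 to 0.16, adjusted p = 0.421). In a fit on the 6 day 21 arrays alone, which uses their own smaller spread, its adjusted p was 0.05 and it passed. IPCR liver rose 26.1-fold with age (log2 4.70, SE 0.25, adjusted p = 5.65e-09). The adult differences from control were 0.33 in both restricted groups (95% intervals -0.20 to 0.86 in IUCR and -0.20 to 0.87 in IPCR, adjusted p = 0.789 and 0.548), and without array B the IUCR difference was 0.65 (adjusted p = 0.332).

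Beside the rise of Cdh17, the mean of 6 enterocyte markers was 7.14 to 7.22 in control and 6.96 to 7.02 in IPCR liver at day 21, and 7.29 to 7.60 over the day 450 groups. Of those markers 1 of 6 was called higher and 1 lower in the IPCR age change, in which 28.1% of all genes passed. Of the 6, 2 lay below the lower quartile on all arrays of each group, and the part of these markers in the Cdh17 values was not tested. Of 14 cadherins measured, fixed as a list of relatives, 0 rose and 2 fell in IPCR liver at day 21, where 9.62% of all genes were called. N-cadherin Cdh2 fell by 0.33 (adjusted p = 0.025) and E-cadherin Cdh1 by 0.40 (adjusted p = 0.0334). Both were higher at day 450 than at day 21 in IPCR liver, by 0.41 and 0.50 in log2.

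Slc39a5 encodes a zinc importer of the cell membrane (probe set 10899764). It read 9.46, 9.33 and 9.68 in control and 9.42, 9.50 and 9.62 in IPCR liver at day 21, with the groups interleaved. At day 450 it read 7.24, 7.36 and 7.52 in control, 7.28, 7.25 and 7.20 in IUCR and 7.43, 7.36 and 7.18 in IPCR liver, again with overlap. The day 21 difference was 0.02 (SE 0.10, adjusted p = 0.921), and its 95% interval of -0.19 to 0.24 leaves room for changes of that size in either direction. IPCR liver fell 4.57-fold with age (log2 -2.19, SE 0.10, adjusted p = 1.2e-09). Adult differences from control were -0.13 (-0.34 to 0.08) in IUCR and -0.05 (-0.26 to 0.16) in IPCR liver, with adjusted p-values of 0.792 and 0.829. On array C of IPCR at day 450, where pancreatic markers were high, Slc39a5 was the lowest of all adult arrays, and without that array its IPCR age change was -2.12 (adjusted p = 2.18e-08). Of 27 other zinc transporters and metallothioneins, 1 was higher and 2 lower in IPCR liver at day 21, near the 9.62% of all genes called there. The importer Slc39a8 fell by 0.46 (adjusted p = 0.00282), the exporter Slc30a6 fell by 0.41 (adjusted p = 0.00667) and Slc30a3 rose by 0.38 (adjusted p = 0.0387). In the IPCR age change, in which 28.1% of all genes passed, 11 of the 27 rose and 3 fell.

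Aqp7 is an aquaglyceroporin, a channel for water and glycerol best known from fat cells (probe set 10876060). Day 21 values were 8.15, 8.37 and 8.51 in control and 8.45, 8.58 and 8.4 in IPCR liver, and these overlapped. Adult values were 6.17, 6.11 and 6.21 in control, 5.79, 6.32 and 6.16 in IUCR and 5.83, 6.17 and 6.25 in IPCR liver. All 9 adult values were below the lower quartile of genes. Between the day 21 groups the difference was 0.14 (SE 0.13, 95% interval -0.14 to 0.42, adjusted p = 0.595). IPCR liver fell 5.26-fold with age (log2 -2.40, SE 0.13, adjusted p = 7.09e-09), and the adult differences from control were -0.08 in both restricted groups (95% intervals -0.36 to 0.20 in IUCR and -0.37 to 0.20 in IPCR, adjusted p = 0.924 and 0.785). The mean of 6 adipocyte markers stayed within 7.27 to 7.47 over all 5 groups, and 0 of 6 were called in the day 21 comparison. Among 14 other aquaporins and genes of glycerol use, 1 rose and 2 fell in IPCR liver at day 21, where 9.62% of all genes were called. Glycerol kinase, Gk, fell by 0.91 (adjusted p = 6.25e-05), the water channel Aqp8 fell by 1.12 (adjusted p = 7.26e-05), and the glycerol channel Aqp3 rose by 0.53 (adjusted p = 0.015).

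Aldh1b1 is a mitochondrial aldehyde dehydrogenase that oxidises acetaldehyde and retinaldehyde (probe set 10868726). Control livers at day 21 read 9.11, 8.93 and 8.99, and IPCR livers 9.33, 9.61 and 9.27. The 3 IPCR values were all above the 3 controls. At day 450 the values were 6.48, 6.60 and 6.64 in control, 6.68, 6.24 and 6.76 in IUCR and 6.71, 7.11 and 6.73 in IPCR liver, where the IPCR arrays again lay above the controls and the IUCR arrays spread across them. The day 21 difference was 0.39 (SE 0.14, 95% interval 0.10 to 0.68), and its adjusted p of 0.0896 did not pass. It passed with quantile normalization (0.52, adjusted p = 0.0319) and in a fit on the day 21 arrays alone (0.39, adjusted p = 0.0482), with 0.0319 to 0.332 as the range over all 15 alternatives.

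IPCR liver lost Aldh1b1 with age by 2.55 in log2 (SE 0.14, 5.88-fold, adjusted p = 5.65e-09). The adult difference from control was 0.27 (95% interval -0.02 to 0.56, adjusted p = 0.369) in IPCR and -0.02 (-0.31 to 0.27, adjusted p = 0.983) in IUCR liver. Of 14 other aldehyde dehydrogenases, 0 rose and 4 fell in IPCR liver at day 21, where 9.62% of all genes were called. Aldh1l2, a mitochondrial enzyme of folate metabolism, fell by 1.41 (adjusted p = 3.83e-05), its cytosolic relative Aldh1l1 fell by 0.79 (adjusted p = 0.00282), and Aldh2, the main acetaldehyde-oxidising enzyme of mitochondria, fell by 0.44 (adjusted p = 0.00427). In the IPCR age change, in which 28.1% of all genes passed, 8 of these 14 rose and 1 fell, while Aldh1b1 fell.

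Alox15 is the lipoxygenase that adds oxygen to arachidonic and linoleic acid (probe set 10744425). It was the most variable of the members high at weaning. At day 21 it read 10.46, 11.53 and 11.12 in control and 10.70, 10.49 and 10.87 in IPCR liver, with the IPCR arrays inside the control range. Adult livers read 7.44, 8.07 and 7.69 in control, 8.26, 7.33 and 8.16 in IUCR and 7.45, 8.26 and 7.34 in IPCR. The adult groups overlapped. IPCR minus control at day 21 was -0.35 (SE 0.29, 95% interval -0.97 to 0.27, adjusted p = 0.531), and leaving out 1 array at a time it ran from -0.64 to -0.10. IPCR liver fell 8.01-fold with age (log2 -3.00, SE 0.29, adjusted p = 2.87e-06). Adult differences from control were 0.18 (-0.44 to 0.80) in IUCR and -0.05 (-0.67 to 0.57) in IPCR liver, with adjusted p-values of 0.919 and 0.95. The mean of 10 eosinophil and mast cell markers, cells rich in this enzyme in other tissues, was 6.03 to 6.26 over all groups, with 0 of 10 called in the IPCR age change. Of these 10, 4 to 5 lay below the lower quartile on all arrays of a group. The mean of 8 macrophage markers was 9.03 to 9.76 in control and 9.06 to 9.21 in IPCR liver at day 21. In the IPCR age change 2 of these 8 were higher and 0 lower. The part of either list in the Alox15 values was not tested. The 11 other lipoxygenase and leukotriene genes had 0 calls at day 21, and 1 rose and 1 fell in the IPCR age change.

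Gfra3 is the membrane-anchored co-receptor through which the nerve growth factor artemin signals to the kinase Ret (probe set 10803815). Day 21 values were 8.74, 8.63 and 8.62 in control and 8.98, 9.17 and 9.0 in IPCR liver. All 3 IPCR arrays were above all 3 controls. At day 450 the values were 7.37, 7.22 and 7.32 in control, 7.18, 7.25 and 7.49 in IUCR and 7.48, 7.40 and 7.57 in IPCR liver, where IPCR again lay above control and IUCR overlapped with both. The day 21 rise was 0.39 in log2 (SE 0.09, 95% interval 0.20 to 0.57), or 1.31-fold, with an adjusted p of 0.0108. Leaving out array B of IPCR gave 0.33 with an adjusted p of 0.0622, which no longer passed, and over 15 alternatives the adjusted p ran from 0.00256 to 0.0622. IPCR liver fell 2.97-fold with age (log2 -1.57, SE 0.09, adjusted p = 7.93e-09). The adult difference from control was 0.18 (-0.01 to 0.37, adjusted p = 0.36) in IPCR and 0.00 (-0.18 to 0.19, adjusted p = 0.995) in IUCR liver. The 9 other receptors and ligands of the GDNF family had 0 calls at day 21 and 0 in the IPCR age change. The mean of 4 nerve and Schwann cell markers was 6.90 to 7.01 in control and 7.05 to 7.20 in IPCR liver at day 21, with 0 of 4 called there. In the IPCR age change, in which 28.1% of all genes passed, 2 of these 4 were lower. The part of these markers in the Gfra3 value was not tested.

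Tnfrsf9 is a co-stimulatory receptor of the tumour necrosis factor family, best known from activated T cells (probe set 10874198). It read 8.88, 9.15 and 8.89 in control and 8.85, 9.01 and 8.76 in IPCR liver at day 21, and these overlapped. Adult livers read 6.93, 6.85 and 6.98 in control, 6.75, 6.81 and 6.37 in IUCR and 6.79, 7.03 and 6.71 in IPCR. The IUCR arrays were all below the controls. The day 21 difference was -0.10 (SE 0.12, 95% interval -0.36 to 0.15, adjusted p = 0.663). IPCR liver fell 4.08-fold with age (log2 -2.03, SE 0.12, adjusted p = 1.31e-08). The IUCR difference at day 450 was -0.28 (95% interval -0.53 to -0.03), with an unadjusted p of 0.0328 and an adjusted p of 0.65, and the IPCR difference was -0.08 (-0.33 to 0.17, adjusted p = 0.775). Leaving out 1 array at a time, the IUCR difference ran from -0.36 to -0.14. Its lowest value, 6.37 on array C, was near the lower quartile of genes. The mean of 12 T and NK cell markers was 6.62 to 6.78 at day 21 and 6.73 to 6.83 at day 450, with 4 to 6 of the 12 below the lower quartile on all arrays of a group. In the IPCR age change 1 of these 12 markers rose and 0 fell. Of 20 other receptors and ligands of the family, 0 rose and 1 fell in IPCR liver at day 21, where 9.62% of all genes were called. The death receptor Fas fell by 0.35 (adjusted p = 0.0351).

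**Figure D3:**
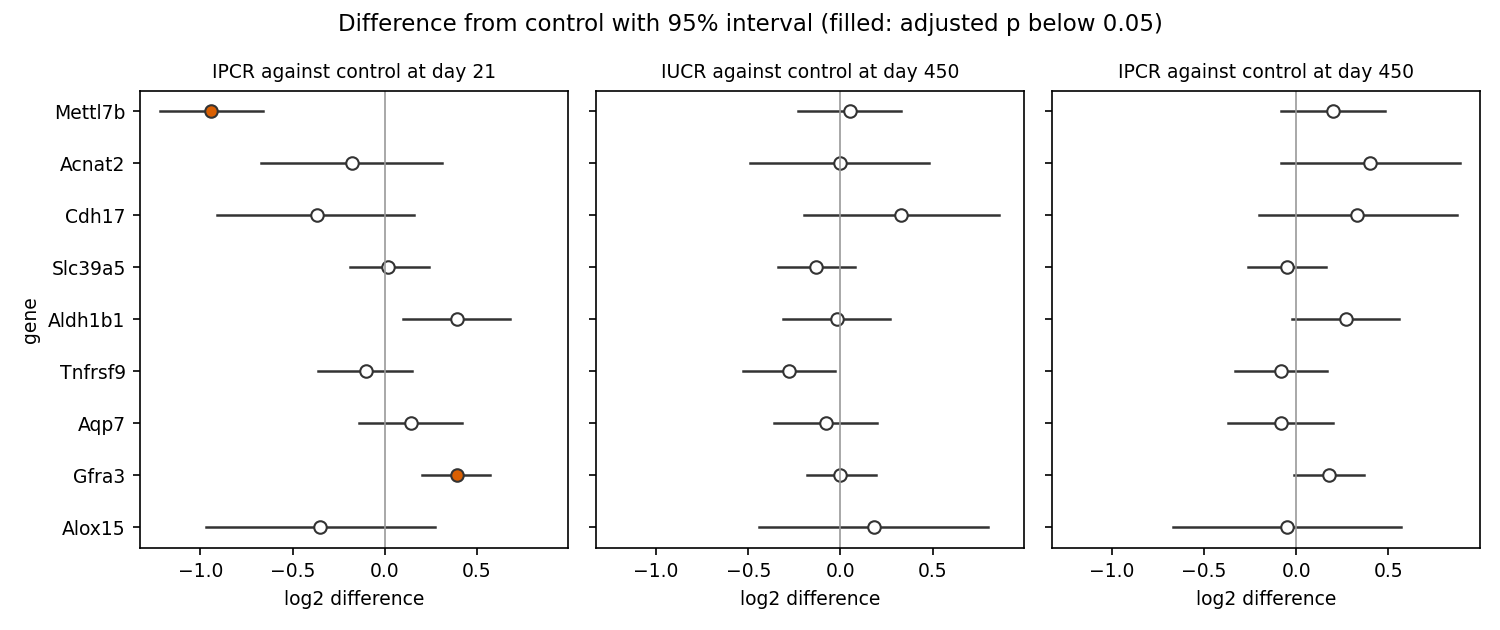
Log2 difference from control (horizontal axis) for the 9 genes in the 3 comparisons of restricted with control liver; points are fitted differences, bars 95% intervals, and filled points passed an adjusted p of 0.05. Filled points are Mettl7b (-0.94) and Gfra3 (0.39) at day 21, and there are none at day 450.

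Relatives of the enzymes high in adults were fixed as lists in the same way. Of 13 measured genes of acyl-CoA amino acid conjugation and thioester cleavage, beside Acnat2, 1 rose and 1 fell in IPCR liver at day 21. Baat, which conjugates bile acids, fell by 0.56 (adjusted p = 0.0208) and the fatty acid importer and acyl-CoA synthetase Slc27a2 rose by 0.34 (adjusted p = 0.00514). Of 13 relatives of Mettl7b and other lipid droplet proteins, 2 rose and 2 fell. The droplet coat protein Plin2 fell by 1.05 (adjusted p = 0.0271), the droplet protein Cideb fell by 0.59 (adjusted p = 0.0144) and the lipase Pnpla2 rose by 0.55 (adjusted p = 0.0386). All these shares are to be read against the 9.62% of all genes called at day 21.

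Lists of genes tied to liver age and sex are given beside Mettl7b and Gfra3. Each day 21 count is to be read against the 9.62% of all genes called at day 21. Each count in the IPCR age change is to be read against the 28.1% of all genes called in it. Of 10 genes known from fetal and suckling liver, 4 rose and 0 fell in IPCR liver: the lipase Lpl by 3.20 (adjusted p = 1.69e-07), alpha-fetoprotein Afp by 2.41 (adjusted p = 5.24e-06), the noncoding RNA H19 by 1.57 (adjusted p = 9.46e-05) and the RNA-binding protein Igf2bp1 by 0.48 (adjusted p = 0.00221). The mean of that list was 8.12 to 8.23 in control and 8.94 to 9.0 in IPCR liver at day 21, and 7.62 to 7.76 at day 450. Of 10 male-biased genes, 0 rose and 1 fell in IPCR liver at day 21: Cyp2c11 read 7.52, 6.89 and 6.10 in control and 5.52, 5.48 and 5.56 in IPCR liver, a fall by 1.32 (adjusted p = 0.043), and 1 of 10 is near the share of all genes. Of 8 female-biased genes, 0 rose and 3 fell in IPCR liver at day 21: the sulfotransferase Sult2a1 by 3.08 (adjusted p = 0.00251), Akr1b7 by 2.86 (adjusted p = 0.000928) and Cyp2c12, which fell by 2.1 (adjusted p = 0.0364). In the IPCR age change 8 of the 10 male-biased genes rose, and 1 of the 8 female-biased genes rose and 4 fell. Cell type markers were called at day 21 in some lists and not in others. Macrophage (8 genes), T and NK cell (12), neutrophil (7), eosinophil and mast cell (10) and red cell precursor (5) markers had 0 calls. Cholangiocyte markers had 1 of 6 higher in IPCR liver, stellate cell markers 1 of 7 lower and B cell markers 1 of 3 lower. Endothelial markers (7 genes) had means of 9.15 to 9.51 in control and 8.64 to 9.14 in IPCR liver at day 21, with 0 higher and 4 lower in IPCR, and 5 of the 7 rose in the IPCR age change. Hepatocyte markers (9 genes) had means of 13.08 to 13.53 in control and 13.62 to 13.68 in IPCR liver, with 2 higher and 0 lower. The part of these lists in the Mettl7b and Gfra3 differences was not tested.

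Stellate cell markers (7 genes) had means of 9.02 to 9.19 in control and 8.84 to 8.89 in IPCR liver at day 21 and of 8.24 to 8.49 at day 450, with 2 of the 7 lower in the IPCR age change and 5 of the 7 in the control age change. Red cell precursor markers (5 genes) had means of 8.39 to 9.01 at day 21 and 7.79 to 8.48 at day 450, with 2 of the 5 lower in each age change. Over all genes 28.1% were called in the IPCR age change and 9.89% in the control age change. The part of either list in the values of the 6 members high at weaning was not tested.

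The genes whose pattern was most like each member were sought by Pearson correlation over the 15 arrays, which share the step between ages. For Mettl7b they were Rup2, a urinary protein (r = 0.995), and Cyp2c11 (r = 0.994). For Acnat2 they were the male-specific steroid dehydrogenase Hsd3b5 (0.990) and Cyp2c13 (0.989), and for Cdh17 they were Rup2 (0.989) and Cyp2c13 (0.987). These values mostly reflect the age step. Within the 9 adult arrays alone, r was 0.87 between Acnat2 and Hsd3b5 and 0.89 between Acnat2 and Cyp2c13, and without array B of IUCR it was 0.74 and 0.86 (n = 8). Over the 6 juvenile arrays, where Acnat2 was low throughout, the same pairs gave 0.07 and -0.44. For Mettl7b with Cyp2c11 r was 0.69 over the 9 adult arrays and 0.91 over the 6 juvenile ones, and with Rup2 it was 0.61 and 0.72. Cdh17 gave 0.68 and 0.50 with Rup2, and 0.67 and -0.08 with Cyp2c13, over the adult and juvenile arrays. The 6 juvenile arrays hold both diets, and Mettl7b and Cyp2c11 were both lower in IPCR liver, so values over them include the difference between diets.

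For the members high at weaning the most alike genes were Abcd2, a peroxisomal fatty acid transporter, for Slc39a5 (r = 0.981 over 15 arrays), the sulfhydryl oxidase Qsox1 for Aldh1b1 (0.981) and for Gfra3 (0.980), and the fatty acid binding protein Fabp7 for Aqp7 (0.981). The steroid hydroxylase Cyp17a1 was most like Tnfrsf9 (0.985), and the matrix glycoprotein Sparc was most like Alox15 (0.975). Next in order came Srpx for Slc39a5 (0.980), Tox for Aldh1b1 (0.974), Col3a1 for Tnfrsf9 (0.975) and Alox15 (0.971), Cyp17a1 for Aqp7 (0.981) and the sterol transporter Abcg5 for Gfra3 (0.972). The values over 15 arrays include the age step here too. Within the 9 adult arrays r between each member and its most alike gene was 0.72 for Tnfrsf9, 0.67 for Slc39a5, 0.62 for Aqp7, 0.47 for Aldh1b1, 0.42 for Gfra3 and 0.27 for Alox15. Without array B of IUCR (n = 8) these were 0.75, 0.70, 0.66, 0.12, 0.30 and 0.48 in the same order. Over the 6 day 21 arrays they were -0.11, 0.61, 0.53, 0.64, 0.63 and 0.69. The adult Aqp7 values were all below the lower quartile of genes. With the gene next in order, r within the 9 adult arrays was 0.59 for Alox15, 0.58 for Slc39a5, 0.37 for Aqp7, 0.14 for Aldh1b1, 0.03 for Tnfrsf9 and -0.08 for Gfra3. Among the members themselves, Aldh1b1 and Gfra3 went together over the 6 day 21 arrays (r = 0.97) and Mettl7b ran against them (-0.88 with Aldh1b1 and -0.91 with Gfra3). Those 6 arrays hold both diets, so these values include the difference between diets.

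**Figure D4:**
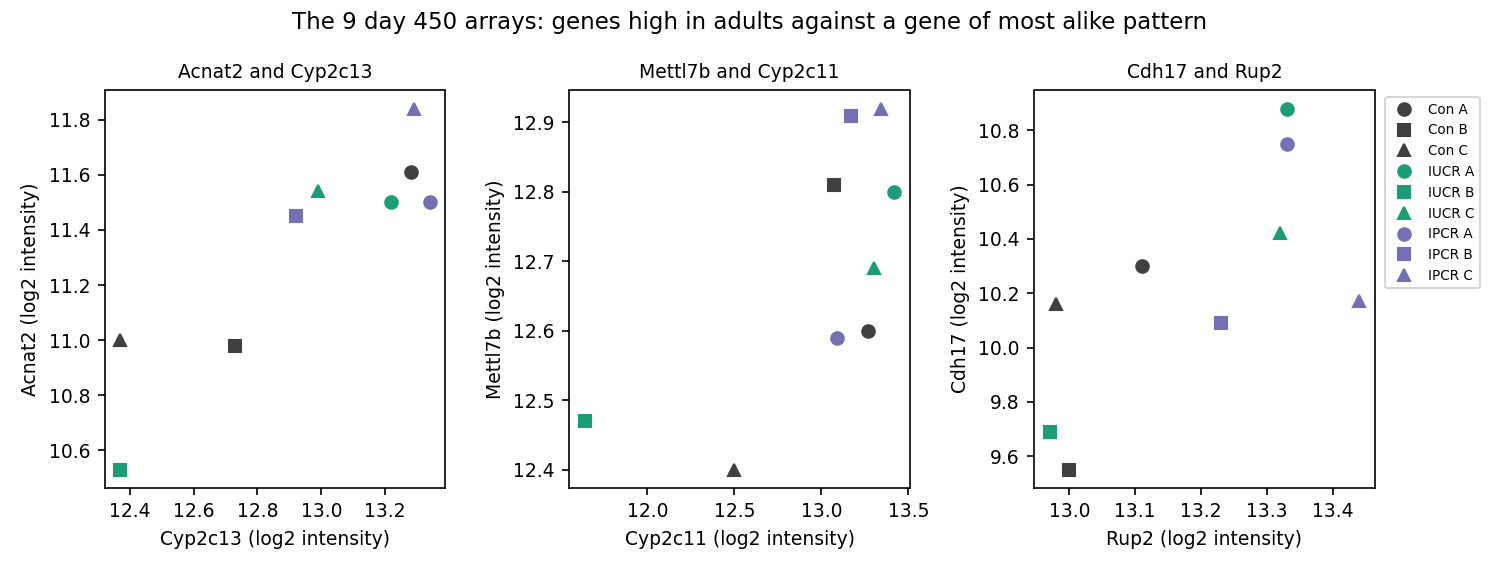
Log2 intensity of Acnat2, Mettl7b and Cdh17 (vertical axes) against a gene of most alike pattern (horizontal axes: Cyp2c13, Cyp2c11 and Rup2) on the 9 day 450 arrays; colours are groups and shapes are arrays A, B and C. IUCR array B had the lowest values of Acnat2 (10.53), Cyp2c11 (11.64) and Rup2 (12.97). A control array read lower for Mettl7b (12.40 against 12.47 on IUCR array B) and for Cdh17 (9.55 against 9.69). Over the 9 arrays r is 0.89, 0.69 and 0.68 from left to right.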

How the data were processed

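The authors deposited log2 intensities for 29215 probe sets on 15 arrays, which per the submitters' processing notes came from Affymetrix Expression Console with the RMA method, versions not given there. RNA was isolated with Trizol and RNeasy, per the labels' protocols. The deposited log2 values were used unchanged, and 0 columns were left unused. A supplied annotation gives 15310 probe sets 1 gene symbol, 323 several and 13582 none. Only the first kind was used, with the probe set of highest mean for the 527 genes that have several, leaving 14506 genes, of which 14481 are in the RefSeq table.

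Group means over 15 arrays were fitted with limma 3.58.1 (lmFit, eBayes; R 4.3.3; 10 residual degrees of freedom). A gene was called where its Benjamini-Hochberg adjusted p, over all 14506 genes within a comparison, was below 0.05. SE and 95% intervals are limma's, SD is over 3 arrays, and ± marks SD. The number of arrays limits the precision, with a median SE of 0.096 in log2 for the day 21 comparison. An exact permutation test of 3 against 3 arrays cannot go below p = 0.1, so none is given. The fit was tested on simulated data.

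The 9 members and all lists (9 of relatives with 135 measured genes, 14 of cell markers, and lists of fetal and sex-biased genes) were chosen with earlier results of these data known. Named genes were all members, the 2 genes most correlated with each, up to 3 called relatives per list with the smallest adjusted p, and the 3 genes next after the members in the contrast that chose them. Other genes were named after their values were seen. Alternatives were median centring, quantile normalization, a block on replicate letter, the groups compared only, the mean of probe sets, genes above the median, trend and robust moderation, an adjusted p below 0.10, each array's interquartile range as a covariate, and leaving out each array. Samples with the same letter did not deviate together (r from -0.261 to 0.196, median -0.0107, over 30 pairs), so the letters were not taken as pairs. Neither time of day nor array batch is in the labels, so neither was tested.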

Additional observations from a re-analysis of the deposited data

Results flagged for a closer look

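The IPCR effect on Mettl7b differed between the ages by 1.14 in log2 (limma, adjusted p = 0.0024), which drew attention because a test of the difference between ages passed. Restricted livers were lower by 0.94 at day 21 and higher by 0.20, within the spread, at day 450. At day 21 3 of 3 IPCR arrays were below all controls, and at day 450 the groups overlapped. The difference equals the IPCR age change minus the control age change, and Mettl7b was chosen on the latter, so this p is not independent of the choice. With each array's interquartile range as a covariate it was 0.89 (adjusted p = 0.0868). Groups of 3 arrays are too small for a test of single outlying arrays.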

How the results depend on the processing

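The count of members called in IPCR against control at day 21 was 2, and it was 4 when only the arrays of the groups compared were fitted, adding Aldh1b1 (adjusted p = 0.0482) and Cdh17 (0.05). Leaving out each array it ran from 1 to 2, and the 1 came without array B of IPCR. Mettl7b stayed called under all 15 alternatives (-1.05 to -0.83). The count for the difference between the IPCR effects of the 2 ages went from 1 to 0 with the interquartile range as a covariate (Mettl7b 0.89, adjusted p = 0.0868), under which 111 of 14506 genes were called in place of 1189. The cause was not tested. The counts for the IPCR age change (9, or 8 of 8 where the filter on dim genes removes Aqp7) and for the 3 comparisons at day 450 (0) did not move under any alternative. Over 6 comparisons of 9 genes, 15 of 54 differences changed sign under some alternative, all uncalled and between -0.34 and 0.34. With the replicate block the counts were 2, 9, 0, 0, 0 and 1, and Mettl7b at day 21 was -0.94 (adjusted p = 0.00114), so it changed no call. Over all genes, calls at day 21 (1396) fell to 755 without array A of IPCR, and those of the IPCR age change (4070) to 1722 with the covariate. Signal near background limits Cdh17 at day 21 and Aqp7 in adults.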
